A study of Mus musculus with 2 samples.

Results

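The 9 genes described here, *Klra1*, *Klra4*, *Klra5*, *Klra7*, *Klrb1c*, *Klrd1*, *Klre1*, *Klrk1* and *Ncr1*, encode receptors by which natural killer (NK) cells sense their targets, and were taken by name from the 27998 genes counted in both libraries. Single-cell RNA libraries were made from the ear skin of male ICR mice, an outbred strain, aged 7 to 8 weeks. The control library came from ears labelled as healthy, and whether they were given the vehicle is not stated in the sources used here. The ACD library came from mice with allergic contact dermatitis, sensitised on the back with 1.0% 1-fluoro-2,4-dinitrobenzene (DNFB) and elicited on the ears with 0.2% DNFB on day 6, with ears collected 60 hr later. Each group is 1 library, and how many mice each pooled is not given in the sources used here, so no comparison between ACD and control has a replicate check and none was tested. All intervals are exact 95% intervals that cover counting error only, and a level is given in CPM, the unique molecular identifiers (UMIs) of a gene per 1000000 UMIs of the cells named.

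NK cells weigh signals from inhibitory and activating receptors, and kill or release cytokines when activation prevails. The Ly49 receptors, lectin-like proteins encoded by the *Klra* genes, mostly read MHC class I on the target: Ly49A (*Klra1*), Ly49E (*Klra5*) and Ly49G2 (*Klra7*) are inhibitory, whereas Ly49D (*Klra4*) activates through the adaptor DAP12. CD94 (*Klrd1*) pairs with NKG2 chains to read Qa-1, *Klre1* encodes a partner of the KLRI chains, and NK1.1 (*Klrb1c*), NKG2D (*Klrk1*) and NKp46 (*Ncr1*) are activating. Several of them are also known on T cells, among them NKG2D on activated CD8 T cells and Ly49E on the γδ T cells of the epidermis.

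In the GRCm38 build with GENCODE M21, 8 of the members lie in the NK gene complex of chromosome 6: *Klrb1c* (ENSMUSG00000030325, chr6:128778485-128789215, minus strand), *Klre1* (ENSMUSG00000050241, chr6:129577905-129585827, plus strand), *Klrd1* (ENSMUSG00000030165, chr6:129591782-129598775, plus strand), *Klrk1* (ENSMUSG00000030149, chr6:129610323-129623864, minus strand), *Klra5* (ENSMUSG00000030173, chr6:129898996-129917650, minus strand), *Klra4* (ENSMUSG00000079852, chr6:130043731-130067271, minus strand), *Klra7* (ENSMUSG00000067599, chr6:130218605-130233322, minus strand) and *Klra1* (ENSMUSG00000079853, chr6:130363917-130386874, minus strand). *Ncr1* (ENSMUSG00000062524, chr7:4337724-4345164, plus strand) lies on chromosome 7. Ly49 genes differ in number and sequence between mouse strains, and these ICR reads were mapped to a C57BL/6 reference, so a Ly49 count is uncertain where a near-identical gene could take or give reads. In the annotated transcripts, 27.5% of the 50-base windows in the last 500 bases of *Klra7* also occurred in the pseudogene *Klra13-ps*, 5.76% of those of *Klra1* occurred in *Klra4*, and 4.66% of those of *Klra4* occurred in *Klra1*.

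Of the Ly49 genes, *Klra4*, *Klra5* and *Klra7* also share sequence before their start sites. These windows are shown because, alike as they are, the first and the last of these genes had their highest levels in NK cells and *Klra5* in epidermal T cells. The RefSeq windows (GRCm38.p6, minus strand, 5′ to 3′, 200 bases ending at the base before the start site) are chr6:130067272-130067471 for *Klra4*, chr6:129913225-129913424 for *Klra5* and chr6:130233323-130233522 for *Klra7*, and capitals mark the words of 8 or more bases found in all 3 windows, 38 bases of each.
Klra4: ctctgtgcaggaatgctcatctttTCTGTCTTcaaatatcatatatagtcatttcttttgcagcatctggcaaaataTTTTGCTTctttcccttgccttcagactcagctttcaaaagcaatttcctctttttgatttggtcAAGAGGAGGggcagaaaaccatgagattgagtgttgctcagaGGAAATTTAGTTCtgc
Klra5: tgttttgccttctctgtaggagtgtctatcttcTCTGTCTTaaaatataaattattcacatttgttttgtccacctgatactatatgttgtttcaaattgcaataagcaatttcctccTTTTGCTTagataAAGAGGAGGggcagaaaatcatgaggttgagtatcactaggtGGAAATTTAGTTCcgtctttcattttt
Klra7: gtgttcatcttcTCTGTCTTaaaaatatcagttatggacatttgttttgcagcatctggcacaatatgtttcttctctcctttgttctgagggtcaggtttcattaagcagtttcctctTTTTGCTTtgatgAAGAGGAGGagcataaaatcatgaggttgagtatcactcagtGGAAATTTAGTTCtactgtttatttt
Aligned over the 250 bases before the start, *Klra4* and *Klra7* were identical at 74.0% of positions, *Klra5* and *Klra7* at 69.6%, *Klra4* and *Klra5* at 64.3%, the window of another RefSeq start of *Klra7* was identical to *Klra4* at 45.1% and to *Klra5* at 44.7%, and *Klra1* was identical to the other Ly49 windows at 43.6% to 49.5%. The *Klra5* window lies inside the span that GENCODE gives this gene, because RefSeq starts its transcript further in. A search on both strands for 3 words bound by lymphocyte factors found the T-box word TCACACC in none of the member windows and in 3.33% of the 32851 windows of all genes. The RUNX word TGTGGT (14.0% of all windows) occurred once before the start of *Klra1*, 89 bases before *Klrb1c*, 229 before *Klre1*, 129 before *Klrk1*, and 176 and 41 before *Ncr1*. The ETS word AGGAAG (29.5% of all windows) occurred 12 bases before *Klra1*, 28 before *Klre1*, 20 before that other start of *Klra7*, and at 126, 105 and 101 before *Klrb1c*. Each window runs from 250 bases before to 50 after a start site, but only the 250 bases before it were searched. This holds for the members and for all genes. A position is counted from the start site of the window that holds the match, and the last 2 matches of *Klrb1c* overlap. A match is a description of the letters only. *Klrd1* was not matched to a window.

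After filtering, 12213 of 12895 control barcodes and 11665 of 13163 ACD barcodes were kept, with a median of 6850 and 7447 UMIs. Of the kept cells, 43.1% and 31.1% fell in a chondrocyte gate and 1.29% and 0.952% in a keratinocyte gate, so the tissue holds ear cartilage as well as skin. Lymphocyte gates were drawn from genes other than the members. The NK gate needed cytotoxic or NK transcription factor genes together with *Tyrobp* or *Fcer1g* and at most 1 UMI of the CD3 genes, and took 22 control cells (0.180% of kept cells, 0.113% to 0.273%) and 561 ACD cells (4.81%, 4.43% to 5.21%), for a log2 ratio of 4.74 (4.13 to 5.42). Among lymphocytes this was 2.50% of 880 cells and 14.2% of 3950. The CD8 gate took 13 and 675 cells, the CD4 gate 39 and 633, the Treg gate 18 and 334, the *Cd163l1*-positive T gate 158 and 409, and the epidermal T gate 97 and 90. The labels of the gates were checked by summed marker levels against chondrocytes, where some UMIs of nearly every marker were found too. Of 11 NK markers other than the members, of which the gates used only *Il2rb*, the sum was 7350 CPM in control and 11141 in ACD NK cells, against 2.56 and 64.6 in chondrocytes. The list is not held by NK cells alone, as it summed to 3807 and 4715 CPM in the CD8 gate, with *Ccl5* highest in both libraries. In the control NK gate it was below a list of epidermal T cell markers (11461 CPM). That list includes *Fcer1g*, which the NK gate used, and *Xcl1*, there the highest gene of the NK list. The order of these sums is therefore no check of the label. The lists for the T gates include the genes that define those gates, so they are no independent check. Hemoglobin genes, which mark RNA of red cells, moved with the condition in several gates: 228 and 3529 CPM in the NK gate, 104 and 1368 in CD8, 98.3 and 3045 in CD4, 103 and 2288 in *Cd163l1*-positive T, 64.0 and 106 in Treg, and 134 and 195 in epidermal T cells, control first. Their part in the results was not tested. The libraries shared 50 barcode sequences, of which 47 were kept in both. Of the cells with those 47, 4 in control and 11 in ACD stood in a gate.

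Over all kept cells every member had a higher level in the ACD library. The 9 genes together had 1389 UMIs in control and 18774 in ACD, or 15.1 (14.3 to 15.9) and 188 (186 to 191) CPM, for a log2 ratio of 3.64 (3.57 to 3.72). *Klra1* went from 15 to 3182 UMIs (log2 ratio 7.62), *Klra4* from 7 to 565 (6.22), *Klrb1c* from 8 to 384 (5.47), *Klre1* from 20 to 821 (5.25) and *Ncr1* from 34 to 1119 (4.93). The ratios of the members that T cells also held were smaller, with 392 and 5525 UMIs for *Klrd1* (3.70), 733 and 5856 for *Klrk1* (2.89) and 180 and 508 for *Klra5* (1.38). *Klra7* had 0 UMIs in the control library and 814 in ACD, at least 251-fold higher against a floor of 3 UMIs. Chondrocytes, which should lack these receptors, had between 0 and 0.178 CPM of each member in control and between 0.0817 and 1.44 in ACD, and these values serve as the background from free RNA. With 10 CPM added to each level, which weighs against low genes, 4 of the 9 members (*Klra1*, *Klrd1*, *Klrk1* and *Ncr1*) were at least 2-fold higher over all kept cells, where 1.99% of 15356 genes with at least 50 UMIs were, and 0 were at least 2-fold lower, against 0.221%. *Klra1* and *Ncr1* reached 50 UMIs through ACD alone, so nothing is read from this count against the share of all genes.

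The cells that carried these UMIs differed between the libraries. In control, epidermal T cells held 34.4% of the UMIs of the 9 members and the NK gate 9.72%, while in ACD the NK gate held 40.8%, the CD8 gate 22.8%, CD4 6.49%, *Cd163l1*-positive T 4.51% and epidermal T 2.67%. Lymphocytes that met no gate held 29.3% and 15.9%. In ACD the NK gate held 79.2% of *Ncr1* UMIs, 77.9% of *Klra4*, 73.2% of *Klrb1c*, 71.1% of *Klra7*, 67.4% of *Klra1* and 59.4% of *Klre1*. It held a smaller share of *Klrk1* (24.6%), *Klrd1* (23.7%) and *Klra5* (16.9%), of which the CD8 gate held 30.3%, 37.8% and 12.8%. For *Klra5*, the largest gated share in ACD lay in epidermal T cells (19.7%).

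**Figure D1:**
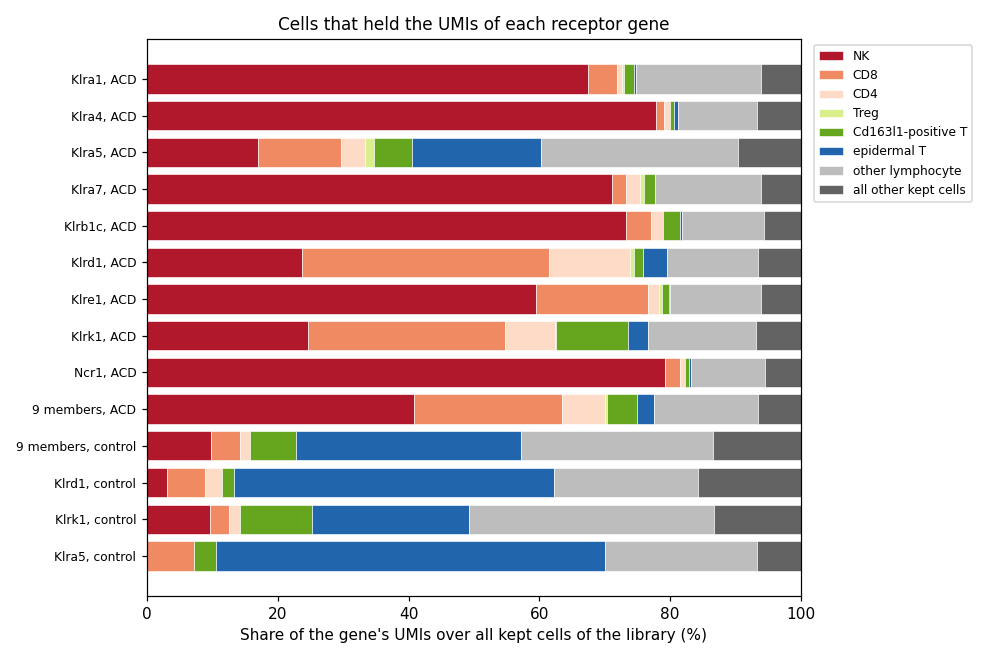
Percent of the UMIs of each member gene that lay in each gate, as stacked bars that each sum to 100%. All members and their sum are drawn for the ACD library. For the control library only the sum, *Klrd1*, *Klrk1* and *Klra5* are drawn. In ACD the NK gate holds 79.2% of *Ncr1* UMIs and 16.9% of *Klra5* UMIs.

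The question in the NK gate was whether the cells taken from inflamed ears carried the same receptors as the few taken from healthy ears. The inhibitory Ly49 genes *Klra1* and *Klra7* and the CD94 gene were higher in ACD, the NKG2D gene was lower, and for the NKp46 gene the interval of the ratio includes 0. *Klra1* had 9 UMIs in 3 of 22 control cells, or 93.4 CPM (42.7 to 177), and 2146 UMIs in 374 of 561 ACD cells, or 696 (667 to 726), for a log2 ratio of 2.90 (1.97 to 4.03). *Klra7* had 0 UMIs in control, which allows up to 31.1 CPM taking 3 UMIs as the floor, and 188 (173 to 204) in ACD, at least 6.03-fold higher against that floor. The floor is not the upper limit of the exact interval of a count of 0, which is 38.3 CPM. *Klra4*, the activating member, had 72.7 (29.2 to 150) and 143 (130 to 157), for a log2 ratio of 0.97 whose interval (-0.08 to 2.30) includes 0. *Klra5* had 0 in control and 27.9 (22.3 to 34.4) in ACD, which is under the control floor, so no fold is given, and 19 of its 86 ACD UMIs came from 1 cell. Together the 4 Ly49 genes had 166 CPM (94.9 to 270) in control and 1054 (1018 to 1091) in ACD, for a log2 ratio of 2.67 (1.96 to 3.47). Their control UMIs came from 3 cells.

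Among the pairing chains, *Klrd1* had 125 CPM (64.4 to 218) in control NK cells and 424 (401 to 448) in ACD, for a log2 ratio of 1.77 (0.96 to 2.72). *Klre1* had 72.7 (29.2 to 150) and 158 (145 to 173), for a log2 ratio of 1.12 (0.07 to 2.44). Both intervals lie above 0, the second by little. Of the activating receptors, *Klrb1c* had 51.9 (16.9 to 121) and 91.1 (80.8 to 102), for a log2 ratio of 0.81 (-0.43 to 2.45). *Ncr1* had 249 (160 to 371) and 287 (269 to 307), for a log2 ratio of 0.21 (-0.38 to 0.86). *Klrk1* went the other way, from 737 (576 to 930), in 18 of 22 cells, to 466 (442 to 491), in 455 of 561 cells, for a log2 ratio of -0.66 (-1.0 to -0.30). This direction depended on the gate: with the adaptor genes alone as the NK criterion, which took 53 and 856 cells, the ratio of *Klrk1* was 0.28. That gate also gave the highest ratio of the other members with control UMIs. Over the alternatives tried the ratio ran from 2.24 to 4.06 for *Klra1*, 0.19 to 2.13 for *Klra4*, 0.33 to 1.97 for *Klrb1c*, 0.83 to 2.28 for *Klre1*, 1.65 to 2.25 for *Klrd1* and -0.15 to 1.37 for *Ncr1*, so the direction of *Ncr1* was not kept.

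With 10 CPM added to each level, 5 of the 9 members (*Klra1*, *Klra5*, *Klra7*, *Klrd1* and *Klre1*) were at least 2-fold higher in ACD NK cells, where 12.2% of the 5890 genes with at least 50 UMIs were, and 0 were at least 2-fold lower, against 6.1% of those genes. All 5 reached 50 UMIs through ACD alone, so this count is a description and nothing is read from it against the share of all genes. The call of *Klra5* rests on the 10 CPM added, since its level is under the control floor. The median log2 ratio on this scale was 1.03 for the members and -0.00053 for all genes tested, a description for the same reason. The control gate rests on 22 cells, and markers of another cell type moved with the comparison. *Avil*, a gene of epidermal T cells, had a UMI in 4 of its 22 cells and in 11 of the 561 ACD cells. A list of epidermal T cell markers, 7 of 8 found and *Krt83* at 0, summed to 11461 CPM in control (*Gzmc* highest) and 5963 in ACD. Of its 1104 control and 18389 ACD UMIs, *Fcer1g*, a gene of the gate, held 134 and 3457. *Xcl1*, which is also in the NK marker list, held 256 and 4580. The part of the epidermal T cell markers in the ratios was not tested beyond leaving out the *Avil*-positive cells. Without those cells the ratio of the 9 members together was 0.91, against 0.82 (0.58 to 1.08) with them. Myeloid markers also moved with the comparison, at 218 CPM in control (2 of 14 found) and 1059 in ACD (11 of 14 found, *Cd74* highest, with *C1qc*, *Tpsb2* and *Retnlg* at 0). At least 5 myeloid UMIs were carried by 2 of 22 and 30 of 561 cells, and without these the ratio was 0.81. Stromal markers summed to 654 CPM in control and 1591 in ACD. The CD8 list, with *Ccl5* highest in both, summed to 3602 and 6638. The part of these markers was not tested.

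**Figure D2:**
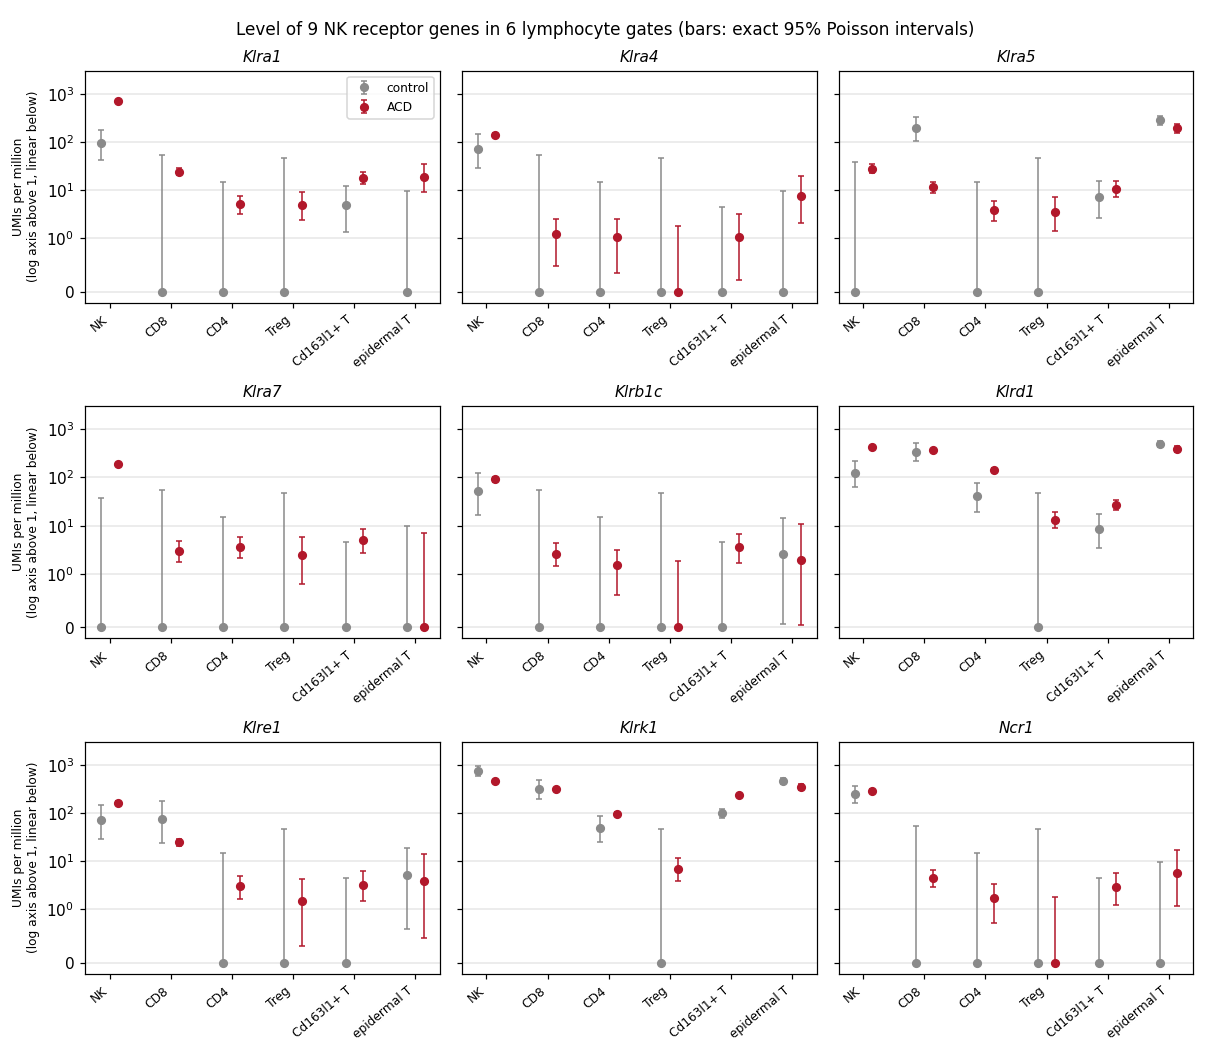
CPM of each member in each gate on a logarithmic axis, with control and ACD as separate points and bars for the exact 95% Poisson interval. In the NK gate *Klra1* stands at 93.4 in control and 696 in ACD, while *Ncr1* stands at 249 and 287 with overlapping intervals.

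In the CD8 gate the members that were abundant in ACD were *Klrd1* and *Klrk1*, and their levels were close to those of the 13 control cells. *Klrd1* had 342 CPM (217 to 513) in control and 366 (351 to 382) in ACD, for a log2 ratio of 0.10 (-0.49 to 0.76). *Klrk1* had 312 (193 to 477) and 310 (296 to 325), for a log2 ratio of -0.01 (-0.63 to 0.69). Wide as these intervals are with 13 control cells, they do not show that the levels were alike. *Klra5* had 193 (103 to 331) and 11.4 (8.78 to 14.5), for a log2 ratio of -4.09 (-4.96 to -3.10), but 11 of the 13 control UMIs came from 1 cell of the 2 that had any. *Klre1* had 74.3 and 24.7 CPM, and its 5 control UMIs all came from 1 cell. *Klra1*, *Klra4*, *Klra7*, *Klrb1c* and *Ncr1* had 0 UMIs in the control gate, which allows up to 44.6 CPM, and 24.3, 1.23, 2.98, 2.63 and 4.55 in ACD, all under that limit. Of the 5 members with enough UMIs, 1 was at least 2-fold higher on the scale with 10 CPM added (*Klra1*; 19.5% of 7393 genes) and 2 were at least 2-fold lower (*Klra5* and *Klre1*; 8.2% of those genes), and their median was -0.01, against 0.02 over all genes. *Klra1* passed the filter through ACD alone, and its call rests on the 10 CPM added. Myeloid genes summed to 7435 CPM in the control gate (6 of 14 found, *Cd74* highest) and 156 in ACD (14 of 14 found), and 1 of the 13 control cells carried at least 5 such UMIs. In addition, 1 control cell had *Avil* UMIs together with *Cd7*, *Fcer1g* or *Itgae*, as epidermal T cells do, and it held 8 of the 23 control UMIs of *Klrd1* and 3 of the 21 of *Klrk1*. Its part in the ratios was not tested. Without cells carrying 5 myeloid UMIs, which were 20 of 675 in ACD, the log2 ratio of the 9 members together was -0.22, against -0.30 (-0.66 to 0.08) with them.

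The epidermal T gate, the γδ T cells that reside in mouse epidermis, was the only gate of similar size in both libraries, and the 3 members it held were lower in ACD. *Klra5*, the Ly49 gene of these cells, had 281 CPM (230 to 339) in control and 191 (156 to 233) in ACD, for a log2 ratio of -0.55 (-0.96 to -0.15), from 45 of 97 and 43 of 90 cells. *Klrd1* had 503 (435 to 580) and 388 (337 to 446), for a log2 ratio of -0.37 (-0.67 to -0.08). *Klrk1* had 462 (396 to 535) and 342 (294 to 396), for a log2 ratio of -0.43 (-0.74 to -0.12). All 3 ratios have intervals below 0, although the levels themselves lie close or overlap. The remaining members were at the limit of detection: *Klra7* had 0 UMIs in both libraries, *Klrb1c* 1 and 1, *Klre1* 2 and 2, and the ACD UMIs of *Klra1* (10), *Klra4* (4) and *Ncr1* (3) each came from a single cell, with 0 in control. None of the 3 members tested was 2-fold higher or lower, against 3.12% and 1.71% of 2695 genes, and their median was -0.42, against -0.06 over all genes. Stromal markers moved with this difference, at 1773 CPM in control and 823 in ACD, and their part was not tested. Myeloid genes also moved with it, at 1668 CPM in control (2 of 97 cells with at least 5 UMIs) and 7311 in ACD (6 of 90 cells, *Cd74* highest, with *C1qb*, *C1qc*, *Cpa3*, *Tpsb2* and *S100a8* at 0). Without those cells the ratio of the 9 members together was -0.29, against -0.38 (-0.57 to -0.20) with them. With *Cd7* and *Fcer1g* as the criterion instead, which took 128 and 178 cells, it was 0.32 (0.18 to 0.45). The ratios of *Klra5*, *Klrd1* and *Klrk1* stayed below 0 under every alternative tried, that gate included, with highest values of -0.47, -0.11 and -0.34. The sum turned with members that the *Avil* gate scarcely held, as ACD levels in the wider gate were 320 CPM for *Klra1*, 95.1 for *Klra7* and 75.1 for *Ncr1*.

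In CD4 T cells, *Klrd1* had 41.0 CPM (19.6 to 75.4) in 5 of 39 control cells and 146 (135 to 157) in 212 of 633 ACD cells, for a log2 ratio of 1.83 (0.95 to 2.90). *Klrk1* had 49.2 and 93.8, for a log2 ratio of 0.93 (0.11 to 1.90), which ran from 0.44 as a mean over cells to 2.80 with thinned cells over the alternatives tried. The other 7 members had 0 UMIs in control, which allows up to 12.3 CPM, and between 1.07 and 5.12 in ACD. Of the 2 members tested, 1 was at least 2-fold higher (*Klrd1*; 3.83% of 7109 genes) and 0 were lower (2.74%). Both members tested reached 50 UMIs through ACD alone, so the count is a description. Markers of other cells moved with the members in this gate. NK markers summed to 340 CPM in control (7 of 11 found) and 991 in ACD (10 of 11 found), and the CD8 list to 266 and 683, with *Cd8a* and *Cd8b1* at 0 in both. Myeloid markers summed to 53.3 and 222, and stromal markers to 2487 and 965. Their part in the ratios was not tested beyond leaving out cells with at least 5 myeloid UMIs, after which the ratio of the 9 members together was 1.54, against 1.53 with them.

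Dermal γδ T cells are known for the scavenger receptor gene *Cd163l1*, and in that gate *Klrk1* was the member with most UMIs. It had 98.4 CPM (78.1 to 122) in 53 of 158 control cells and 231 (213 to 249) in 253 of 409 ACD cells, for a log2 ratio of 1.23 (0.90 to 1.58). *Klrd1* had 8.50 and 27.2, for a log2 ratio of 1.68 (0.56 to 3.04), but 20 of its 76 ACD UMIs came from 1 cell. *Klra1* had 4 UMIs in 1 control cell and 51 in 10 ACD cells. Of the 3 members tested, 2 were at least 2-fold higher (*Klrd1* and *Klrk1*; 1.61% of 6644 genes) and 0 were lower (1.9%). *Klrd1* reached 50 UMIs through ACD alone and lies barely past 2-fold on the scale with 10 CPM added, so the count is a description. ACD cells of this gate were deeper, with a median of 5908 against 4129.5 UMIs, and 68 of 409 of them carried at least 5 myeloid UMIs, against 5 of 158. The summed myeloid level was nonetheless lower, at 772 CPM in control and 386 in ACD. Without those cells the ratio of the 9 members together was 1.35, as with them. NK markers summed to 296 CPM in control (9 of 11 found) and 779 in ACD (10 of 11 found), and their part was not tested.

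The Treg gate had 0 UMIs of any member in 18 control cells, which allows up to 38.4 CPM, and 66 in ACD, or 32.7 CPM (25.3 to 41.6), so no fold is given. *Klrd1* (13.4) and *Klrk1* (6.94) were the highest, and *Klra4*, *Klrb1c* and *Ncr1* had 0 in ACD as well. After thinning to 2000 UMIs, 1.54% of ACD Treg cells (0.501% to 3.55%) showed any member, an interval that overlaps that of chondrocytes (0.581%, 0.360% to 0.887%). Their level was above that of chondrocytes, with 4.60 CPM for the 9 members together and 1.44 for *Klrd1*, but the 66 UMIs came from 12 cells, 1 of which held 21. None of the members had enough UMIs for the 2-fold count, which 10.6% of 4917 genes passed upward and 5.08% downward.

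In the ACD library the order of the 6 gates differed by gene, leaving aside the lymphocytes that met no gate. *Ncr1* stood at 287 CPM (269 to 307) in NK cells, and its levels in the other gates, from 0 in Treg to 5.74 (1.18 to 16.8) in epidermal T cells, overlapped from neighbour to neighbour. *Klra1* stood at 696 in NK cells and between 4.96 and 24.3 in the rest, where CD8, epidermal T and *Cd163l1*-positive T cells had overlapping intervals. *Klra4*, *Klra7* and *Klrb1c* stood at 143, 188 and 91.1 in NK cells and at most at 7.65, 5.0 and 3.57 in the other gates. *Klre1* followed with 158 in NK cells, 24.7 (20.8 to 29.1) in CD8 cells and at most 3.83 in the other gates. Lymphocytes that met no gate had 70.4 CPM of *Klra1*, 15.3 of *Klra7*, 14.7 of *Ncr1*, 13.2 (10.9 to 15.9) of *Klre1*, 7.89 of *Klra4* and 5.57 of *Klrb1c*, each below its level in NK cells. *Klrd1* was shared more evenly: NK cells at 424 (401 to 448), epidermal T cells at 388 (337 to 446) and CD8 cells at 366 (351 to 382) overlapped from neighbour to neighbour, above CD4 cells at 146. *Klrk1* stood at 466 (442 to 491) in NK cells, with epidermal T (342, 294 to 396) and CD8 cells (310, 296 to 325) overlapping, then *Cd163l1*-positive T cells at 231 and CD4 cells at 93.8. Of the 9, *Klra5* alone was led by epidermal T cells, at 191 (156 to 233) against 27.9 in NK and 11.4 in CD8 cells.

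Comparing NK with CD8 cells inside the ACD library, 6 of the 9 members were at least 2-fold higher in NK cells, where 4.76% of 8586 genes were, and 0 were lower, against 2.78%. With 10 CPM added the log2 difference was 4.36 for *Klra1*, 4.35 for *Ncr1*, 3.93 for *Klra7*, 3.77 for *Klra4*, 3.0 for *Klrb1c* and 2.28 for *Klre1*. It was below 1 for *Klra5* (0.83), *Klrk1* (0.57) and *Klrd1* (0.21). The median over the members was 3.0, against 0.03 over all genes. *Klra4*, *Klra7*, *Klrb1c* and *Ncr1* reached 50 UMIs through the NK gate alone, so the count and the median are a description.

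Shares of cells with a UMI were compared after each cell was thinned to 2000 UMIs, which left 20 control and 545 ACD NK cells. *Klra1* was found in 10% of control NK cells (1.23% to 31.7%) and 54.9% of ACD NK cells (50.6% to 59.1%), and *Klra7* in 0 of 20, which allows up to 15.0%, and 20.2% (16.9% to 23.8%). *Klrk1* was found in 75.0% (50.9% to 91.3%) and 58.7% (54.5% to 62.9%), which overlap. For *Klrd1* the shares were 25.0% and 52.8%, for *Klre1* 15.0% and 27.2%, for *Klra4* 10% and 21.1%, for *Klrb1c* 15.0% and 17.2%, for *Ncr1* 40% and 38.5%, and for *Klra5* 0% and 2.75%. Without thinning, *Klra1* had a UMI in 13.6% and 66.7% of NK cells and *Klrk1* in 81.8% and 81.1%. In ACD CD8 cells, *Klrd1* was found in 43.3% and *Klrk1* in 41.7%, while each of the other 7 members was found in at most 4.93%. In *Cd163l1*-positive T cells *Klrk1* was found in 17.1% and 36.5%, and in epidermal T cells *Klra5* was found in 34.4% (24.9% to 45.0%) and 24.1% (15.6% to 34.5%), which overlap. For *Klra5* in these cells the shares were 19.6% and 20% with cells thinned to 1000 UMIs, and 46.4% and 47.8% without thinning. In chondrocytes, with medians of 7773 and 9311 UMIs, no member exceeded 0.194%.

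**Figure D3:**
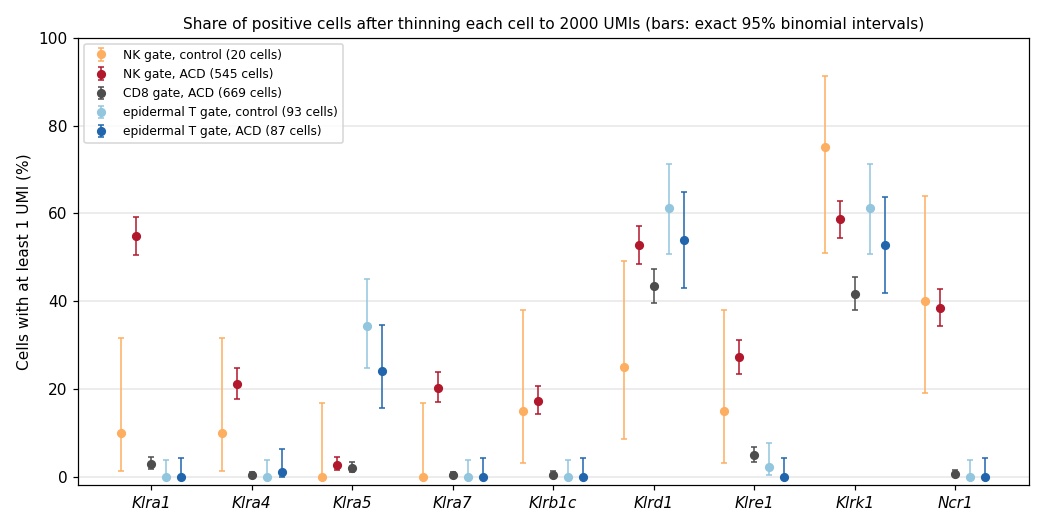
Percent of cells with at least 1 UMI of each member after thinning to 2000 UMIs per cell, with exact 95% binomial intervals. The NK and epidermal T gates have separate points for control and ACD, and the CD8 gate is drawn for ACD only. *Klra1* is found in 10% of control and 54.9% of ACD NK cells, and *Klrd1* in 43.3% of ACD CD8 cells.

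Individual NK cells are known to carry different sets of Ly49 receptors, and the ACD cells were counted by how many of the 4 genes each showed. After thinning, 35.2% showed none, 36.9% showed 1, 21.8% showed 2, 5.87% showed 3 and 0.183%, a single cell, showed all 4. The product of the 4 separate shares would give 27.6%, 48.8%, 20.7%, 2.82% and 0.0643%, so cells with none and cells with 3 were more frequent, and cells with 1 less frequent, than that product. *Klra4* and *Klra7* were found together in 41 cells, where the product gives 23.2, and *Klra1* and *Klra4* in 91, where it gives 63.1. *Klra1* with *Klra7* was nearer to it, at 72 cells against 60.3, and *Klra1* with *Klrk1* stood at 174 against 176. Of all 9 members the most frequent number was 3 (24.2% of cells), 6.79% showed none, where the product gives 1.99%, and 7 cells (1.28%) showed 7 genes. Cells differ in how much of their RNA these genes make up and reads may be shared between Ly49 genes, and neither was tested here. In control, 18 of 20 NK cells showed no Ly49 gene and both others showed *Klra1* with *Klra4*. Epidermal T cells showed at most 1 Ly49 gene in either library, in 34.4% of control and 25.3% of ACD cells.

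**Figure D4:**
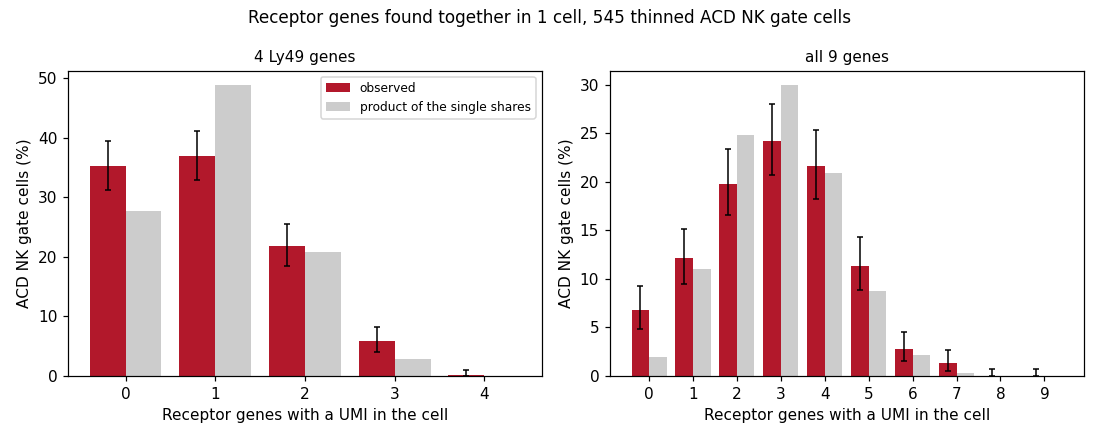
Percent of thinned ACD NK cells by the number of Ly49 genes found per cell and by the number of all 9 members found, with exact 95% binomial intervals, beside the percent given by the product of the separate shares. Cells with no Ly49 gene make up 35.2%, where the product gives 27.6%.

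Within the ACD NK gate the Ly49 genes varied with *Eomes*, the transcription factor of mature NK cells, and *Klrk1* and *Ncr1* did not vary with it by as much. *Eomes* is one of the genes the gate used, and the split compares cells of 1 library. The 343 cells with an *Eomes* UMI had a median of 4544 UMIs and the 218 without had 4050.5. *Klra7* had 265 CPM in the first and 48.3 in the second, for a log2 ratio of 2.46 (2.05 to 2.89). It was 1.57 (1.20 to 1.96) for *Klra4*, 1.08 (0.93 to 1.23) for *Klra1* and 0.96 (0.21 to 1.78) for *Klra5*, and 1.33 (1.20 to 1.46) for the 4 together. The ratio was 0.64 for *Klre1*, 0.47 for *Klrb1c* and 0.17 for *Klrd1*, and its interval included 0 for *Ncr1* (0.05, -0.16 to 0.25) and *Klrk1* (-0.11, -0.27 to 0.05).

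The 33 cells with a UMI of *Itga1*, the CD49a gene of tissue-resident and type 1 innate lymphoid cells, showed the opposite order. They were deeper, with a median of 7945 UMIs against 4284. The log2 ratio to the cells without it was -1.88 (-2.18 to -1.59) for the 4 Ly49 genes, -1.11 (-1.57 to -0.68) for *Ncr1*, -0.66 for *Klrd1* and -0.10 (-0.35 to 0.15) for *Klrk1*. The granzyme gene *Gzma*, also a gate gene, gave the widest split of the markers examined: the 4 Ly49 genes had 1257 CPM in the 474 cells with it and 80.8 in the 87 without, whereas *Klrk1* had 451 and 541. Cells with a UMI of *Mki67*, a proliferation gene, had 818 CPM of the Ly49 genes in 48 cells, against 1095 in the rest, whose median depth was 4267 UMIs against 8137. The members of this sum went both ways, with *Klra1* at 427 and 742 and *Klra4* at 89.9 and 152, but *Klra7* at 256 and 176 and *Klra5* at 43.8 and 25.1. Of the 22 control NK cells, 2 had *Eomes*, 5 had *Gzma* and 0 had *Itga1*, so no ratio between cells with and without a marker was taken in control. The 4 Ly49 genes had 146 CPM (77.9 to 250) in the 20 control NK cells without *Eomes*. They had 534 (492 to 579) in the 218 ACD cells without it, and 166 and 1054 in the whole gate. The part of *Eomes* in the difference between the libraries was not tested.

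**Figure D5:**
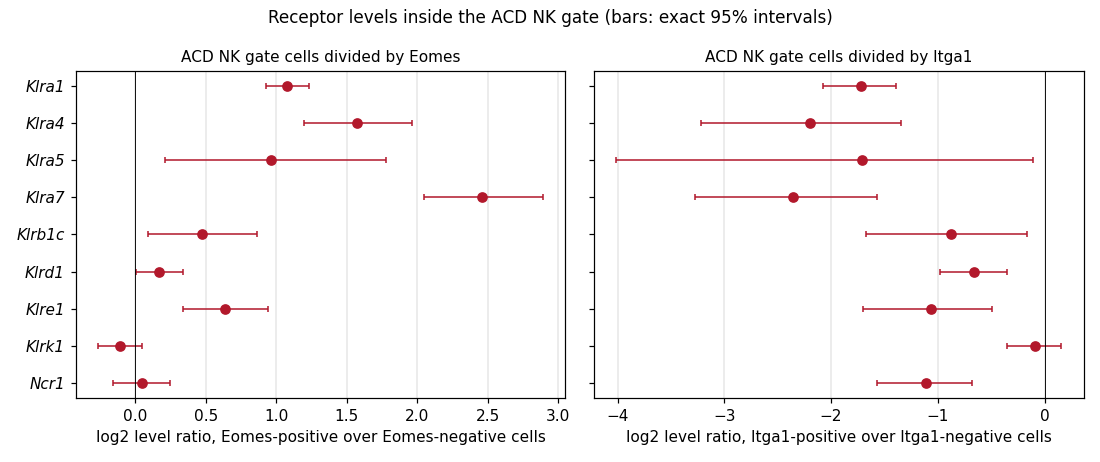
Log2 ratio of each member's level between ACD NK cells with and without a UMI of *Eomes* or of *Itga1*, with exact 95% intervals and a line at 0. The 4 Ly49 genes lie above 0 for *Eomes* and below 0 for *Itga1*, while *Klrk1* has intervals that include 0 in both.

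Of 31 further NK receptor genes, 28 were annotated, and 18 had enough UMIs in the NK gate; 8 were at least 2-fold higher in ACD and 3 lower, against 12.2% and 6.1% of all genes, with a median log2 ratio of 0.65 against -0.00053. All 8 reached 50 UMIs through ACD alone, so the count is a description. The higher ones included other Ly49 genes, with *Klra8* (Ly49H) at 31.1 and 151 CPM, from 3 control UMIs (log2 ratio 2.28, 0.73 to 4.56), *Klra9* at 10.4 and 86.3, from 1 control UMI (3.05, 0.56 to 8.36), and *Klra10* at 0 and 60.6. *Klri2*, the partner chain of *Klre1*, had 51.9 and 138 (1.41, 0.18 to 3.04). The NKG2 chains that pair with *Klrd1* had 114 and 86.6 for *Klrc1* (inhibitory) and 72.7 and 104 for *Klrc2* (activating), and neither was 2-fold apart. The lower ones were *Klrb1f* (156 and 71.3), *Cd160* (166 and 36.3, log2 ratio -2.19, -2.96 to -1.34) and the early activation gene *Cd69* (1163 and 492, -1.24, -1.52 to -0.95). In CD8 cells 3 of 10 were higher and 0 lower, against 19.5% and 8.2% of all genes, and the 3 were *Cd160* (0 and 51.7 CPM), *Cd226* (29.7 and 91.8) and *Cd244* (0 and 10.3), with 2 control UMIs of *Cd226*. The calls of *Cd160* and *Cd244* rest on the 10 CPM added, as a control count of 0 in this gate allows up to 44.6 CPM. That limit is above the ACD level of *Cd244* and little under that of *Cd160*. *Klrc1* at 104 and 182 and *Klrc2* at 134 and 188 were not 2-fold apart. In epidermal T cells 0 of 4 passed in either direction, against 3.12% and 1.71%.

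Of the signal adaptors of these receptors, 3 of 14 with enough UMIs were at least 2-fold higher in the ACD NK gate and 0 lower, against 12.2% and 6.1% of all genes, and their median was -0.29, against -0.00053. These 3 also reached 50 UMIs through ACD alone. *Tyrobp* (DAP12, used by Ly49D) had 1453 and 1644 CPM, for a log2 ratio of 0.18, and *Fcer1g* (used by NKp46) had 1391 and 1121, a ratio of -0.31, both being gate genes. *Hcst* (DAP10, the adaptor of NKG2D) had 664 and 379, a ratio of -0.81 (-1.17 to -0.42), lower in ACD as *Klrk1* was. *Sh2d1a*, the SAP adaptor, had 1 UMI in control and 137 CPM in ACD (log2 ratio 3.72, 1.23 to 9.02). In CD8 cells *Hcst* had 461 and 387, and *Tyrobp*, which would be needed for Ly49D signalling, had 104 and 40.1, its 7 control UMIs all in 1 cell. In epidermal T cells *Fcer1g* had 1482 and 1517 and *Hcst* 404 and 415, while *Tyrobp* had 31.5 and 197, the latter from 10 cells.

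Of 19 ligand genes of these receptors, 14 were annotated and 9 had enough UMIs over all kept cells, where 4 were at least 2-fold higher in ACD and 0 lower, against 1.99% and 0.221% of all genes, with a median of 0.76 against -0.01 over all genes. The classical MHC class I genes *H2-K1* (202 and 1530 CPM, log2 ratio 2.92) and *H2-D1* (1202 and 5150, 2.10), which Ly49 receptors read, were among them, with *H2-T23*, the Qa-1 gene read by the CD94 pairs (66.9 and 259, 1.96), and *Clec2i*, a Clr gene (1.0 and 12.5, 3.65). *H2-K1* was higher in each tissue gate looked at, with 95.1 and 873 in chondrocytes, 244 and 2034 in fibroblasts, 381 and 1403 in keratinocytes and 322 and 2446 in endothelial cells. The NKG2D ligand genes were sparse. *H60b* had 25 and 369 UMIs (0.271 and 3.70 CPM, log2 ratio 3.77), of which 0 in the ACD keratinocyte gate, 33 in NK and 73 in CD8 cells, while *H60c*, the form known in keratinocytes, had 32 and 36 (0.06), 25 and 22 of them in the keratinocyte gate.

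Of 10559 genes with enough UMIs over the 10 combinations of gate and library with at least 20 cells, those whose level followed the sum of the 9 members most closely were *Ctsw* (Pearson r 0.95), *Gm14029* (0.95), *Nr4a2* (0.92), *Efhd2* (0.92), *Ugcg* (0.91), *Tm6sf1* (0.90), *Anxa2* (0.88), *Litaf* (0.88), *Mlx* (0.88) and *Ctsd* (0.87). *Ctsw* encodes cathepsin W, a protease of cytotoxic lymphocytes. The points share libraries and differ in depth, and r is given as a description.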

How the data were processed

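The authors made 10x 3′ single-cell libraries after removing dead cells and deposited UMI counts per gene and barcode, aligned to mm10 with Cell Ranger. Its version is 3.1.0 in the submitters' processing notes and in the file headers, while the study's text names another version. The deposited counts were used as they stand. Barcodes were kept with 201 to 4999 genes, no more than 25000 UMIs and a mitochondrial share under 8%. In the study's text this UMI limit has the sign of a minimum. Here it was taken as a maximum. The study states fewer cells than this filter left, and it names a further sample that is not analysed here. The T cell receptor constant genes were absent from the annotation, so T cells were gated on CD3 genes.

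Gates used fixed genes with non-lymphoid UMIs under 1% of the cell, at least 2 UMIs of lymphocyte genes, and at least 2 CD3 UMIs for T cells or at most 1 for NK cells. No member gene was used. Members and lists were chosen with earlier results of these data known. All 9 members were named, and from each other list the 4 genes with most UMIs and those past 2-fold in the NK, CD8 or epidermal T gate were candidates for naming, as were the 10 genes most like the members. A 2-fold count used genes with at least 50 UMIs and 10 CPM added. Levels have exact Poisson intervals, shares Clopper-Pearson intervals and ratios an exact conditional binomial interval, all at 95%. UMIs of 1 cell are not independent, so intervals are too narrow for the cells. Depth was 92188895 kept UMIs in control and 99649023 in ACD. Doublets were called with Scrublet (571 control and 384 ACD cells, 4.68% and 3.29%) and removed only as an alternative. Python 3.11.15, numpy 2.4.6, scipy 1.17.1, pandas 2.3.3, scanpy 1.11.5, biopython 1.88 and matplotlib 3.10.9 were used. The scripts were tested on simulated data. Promoter windows come from RefSeq (GRCm38.p6), in which 8 of 9 members were matched, and gene positions from GENCODE M21, in which 27645 of 27998 gene IDs were matched.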

Additional observations from a re-analysis of the deposited data

Results flagged for a closer look

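For *Klrd1* and *Klrk1*, the intervals of the log2 ratio lay above 0 in some cell types and below 0 in others. These are differences between ratios of 1 library per group, and the difference was not tested. *Klrd1* had a log2 ratio of ACD to control of 1.77 in the NK gate, 1.83 in CD4 cells and 1.68 in *Cd163l1*-positive T cells, against -0.37 in epidermal T cells. *Klrk1* had 1.23 in *Cd163l1*-positive T cells and 0.93 in CD4 cells, against -0.66 in the NK gate and -0.43 in epidermal T cells. The gates whose interval for *Klrd1* lay above 0 held 22, 39 and 158 control cells. In CD8 cells, with 13 control cells, the ratios were 0.10 for *Klrd1* and -0.01 for *Klrk1*, and both intervals included 0.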

How the results depend on the processing

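No paired analysis was possible because each group is 1 library, and for the same reason no replicate could be left out. Of 78 ratios of the summed members under the alternatives, 70 kept their direction and stayed within the counting interval. Of 388 ratios of single members 375 stayed within that interval. Both counts include ratios that an alternative could not change. A change of gate leaves the ratio over all kept cells as it was, and a change to a single gate leaves most other gates as they were. The counts are therefore no measure of how firm the ratios are. Where the interval includes 0 this does not mean that the direction was kept, as for *Ncr1* in the NK gate (0.21, lowest -0.15). Of the shares of cells, 78 of 108 stayed within their interval. These include members with 0 UMIs in a gate, whose share of 0 could not move. The ratio over all kept cells, 3.64, became 3.54 with all deposited barcodes, 3.73 with at least 500 genes and under 5% mitochondrial UMIs, 3.22 as a mean over cells and 3.23 with each cell thinned to 2000 UMIs. With NK cells gated on adaptors only, the summed ratio in the NK gate became 1.75, the log2 ratio of the NK share of kept cells 4.08, and *Klrk1* in the NK gate reversed to 0.28. The epidermal T ratio became -0.60 with all deposited barcodes and reversed to 0.32 with the gate on *Cd7* and *Fcer1g*, while the ratios of the 3 members that gate cells mainly held stayed below 0 under every alternative tried (*Klra5* -0.86 to -0.47, *Klrd1* -0.56 to -0.11, *Klrk1* -0.62 to -0.34). The *Cd163l1*-positive T ratio became 1.0 with thinned cells. The causes were not tested.

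Counts of genes past 2-fold moved most. With 1 CPM added they were 970 lower in CD8, 651 higher and 405 lower in CD4, 376 lower in Treg, 195 higher and 230 lower in *Cd163l1*-positive T, 71 lower in epidermal T cells, and 763 higher and 578 lower in NK against CD8 cells. With genes of at least 20 UMIs they were 1099 and 599 in NK, 337 lower in CD4, 1194 and 512 in Treg, and 199 and 151 in epidermal T cells, since more genes were counted. Leaving out cells with an *Avil* UMI or with at least 5 myeloid UMIs was chosen after seeing the data, and no summed ratio changed direction under either. Control gates of 13 to 39 cells limit the NK, CD8, CD4 and Treg comparisons. Treg had no ratio under any alternative.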

Other observations

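The maturity genes of NK cells are described by their levels in the NK gate. Of 14 such genes with enough UMIs in the NK gate, 7 were at least 2-fold higher in ACD and 1 lower, with a median log2 ratio of 1.03 (10 CPM added) against -0.00053 over all 5890 genes tested, of which 12.2% were higher and 6.1% lower. Of the 7, only *Gzma* would have reached 50 UMIs without ACD, so nothing is read from the count against these shares. *Irf8*, a transcription factor of NK and myeloid cells, had 145 CPM in control and 786 in ACD (log2 ratio 2.43, 1.69 to 3.31), with myeloid markers at 218 and 1059 CPM in the same cells, whose part was not tested. The granzyme gene *Gzmb* had 93.4 and 328 (1.81, 0.88 to 2.95). *Eomes* (31.1 and 279) and *Gzma* (1007 and 3765) were also higher, and both were genes of the gate. *Ly6c2*, which encodes Ly6C, was the lower one, at 737 in 10 of 22 control cells and 74.3 in 38 of 561 ACD cells (-3.31, -3.70 to -2.91).

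Genes associated with type 1 innate lymphoid cells and other tissue-resident lymphocytes went the other way: of 7 with enough UMIs, 0 were higher and 5 were at least 2-fold lower in ACD, with a median of -1.71, against the same 12.2%, 6.1% and -0.00053 over all genes. *Inpp4b* had 218 and 36.6 CPM (log2 ratio -2.57, -3.25 to -1.83), *Tmem176a* 166 and 38.6 (-2.11, -2.86 to -1.25), the IL-7 receptor gene *Il7r* 125 and 31.1 (-2.0, -2.87 to -1.0) and the TRAIL gene *Tnfsf10* 72.7 and 14.3 (-2.35, -3.51 to -0.95). *Itga1* had 0 UMIs in control and 14.6 CPM in ACD, and the chemokine receptor gene *Cxcr6* had 51.9 and 41.8, with an interval of the ratio that included 0 (-1.57 to 1.34). These values rest on the same 22 control cells, and the count is a description. Markers of other cells moved with the comparison in this gate, control first. Epidermal T cell markers summed to 11461 and 5963 CPM, myeloid markers to 218 and 1059, and stromal markers to 654 and 1591. Their part in these values was not tested.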
